A study of Mus musculus with 96 samples.

Results

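The tripartite motif (TRIM) genes encode a large family of proteins that share a RING domain, B-boxes and a coiled coil. Members were taken as all genes whose symbol is Trim followed by a number and an optional letter, with the probe of highest mean intensity kept for each gene, which gave 54 members among the 16593 genes measured. RNA came from whole spleen and whole blood of 48 male mice in collagen induced arthritis, 1 array per tissue and mouse. The strain was BQ, C57BL/10.Q/rhd, and wild type mice were set against BQ.Ncf1m1J mice, mutated in Ncf1, which encodes p47phox, a part of the enzyme with which phagocytes make reactive oxygen. Tissues were taken at day 15 or day 44 after immunisation, from different mice, and every group was immunised, so there is no group without disease induction. This gave 8 groups of 12 arrays by tissue, genotype and day, with 6 mice from each of experiments I and II, which used different RNA isolation kits. The sources used here do not state the age of the mice.

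Most TRIM proteins are ubiquitin ligases, and the domain after the coiled coil sets the role of each subfamily. Some are induced by interferon or act in the sensing of viral nucleic acid, others serve as chromatin corepressors, bind microtubules or act in muscle. Trim10 and Trim58 are known for their part in the last steps of red cell formation, which in mice also takes place in the spleen. The comparisons asked whether the levels of these genes differed between mutated and wild type mice, between the days and between the tissues, and which members moved with interferon-inducible, erythroid or lymphocyte genes among mice of the same group. In bulk tissue, fewer cells of a type and less RNA per cell cannot be told apart.

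Values are log2 of the deposited intensity, differences are mutated minus wild type or day 44 minus day 15 with their standard error, and a gene is said to pass where the Benjamini-Hochberg adjusted p of limma over all genes lay under 0.05. The targeted gene checked the labels: Ncf1 ranged from 6.66 to 7.91 (median 7.28) in 24 wild type spleens and from 6.01 to 6.88 (median 6.43) in 24 mutated ones, a difference of -0.86 ± 0.06 (adjusted p = 1.9e-14, limma), and it fell by 0.55 ± 0.07 in blood (adjusted p = 1.1e-06). Of 12 spleen markers, 8 lay high in spleen and near the array median in blood, among them Vcam1 (12.60 and 6.13), Ccl21a (11.64 and 6.31) and Spic (10.78 and 6.51), while Dcn lay high in both (10.02 and 8.21), and the probes of Cd5l, Tlx1 and Col3a1 lay under the array median in both tissues. In 5 spleen arrays of experiment I, from 4 wild type mice and 1 mutated mouse, the mean of 19 exocrine pancreas genes exceeded that of the median array by over 1. The same excess was found in 9 blood arrays of experiment I, from 6 wild type mice and 3 mutated ones, 1 of them a mouse whose spleen array also had it.

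In mutated mice other gene lists moved as well, and these counts apply to each genotype result that follows. In spleen 18 of 25 erythroid genes, 8 of 27 interferon-inducible genes and 10 of 10 neutrophil granule genes rose, and 17 of 20 T cell and 14 of 17 B cell genes fell. In blood 12 of 27 interferon-inducible and 6 of 10 neutrophil granule genes rose, 0 of 25 erythroid genes passed, and 1 of 20 T cell and 2 of 17 B cell genes fell. Fits with the interferon-inducible, erythroid and lymphocyte means as covariates are given below, and the part of the neutrophil granule genes was not tested.

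About as many members were measured above the array median in spleen as in blood. The median of all probes was 6.36 in every spleen array and 6.20 in every blood array, and 28 members had a mean above it in spleen, 28 in blood, 24 in both and 22 in neither. The table used holds no detection p-values, and 35 members in spleen and 37 in blood lay below the array median or within 0.5 of it, where a probe may be measuring background. Levels of different probes are not comparable, so each member is set only against itself.

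**Figure D1:**
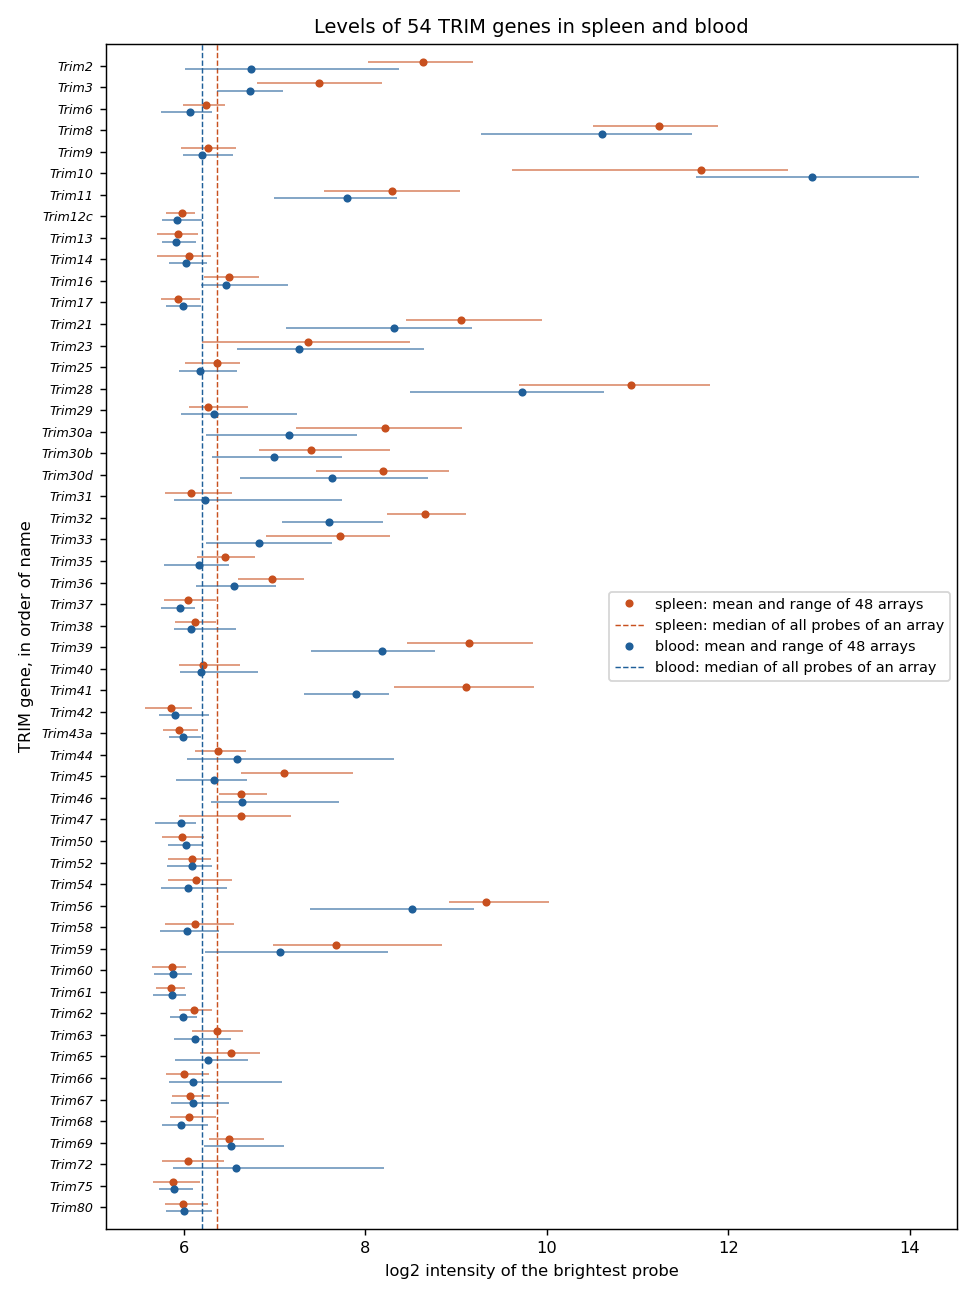
Mean (point) and range (line) of the log2 intensity of each of 54 TRIM genes over 48 spleen arrays (orange) and 48 blood arrays (blue), in order of gene name, with the median of all probes of an array as a dashed line. 22 members lie under the dashed line of both tissues, and Trim2 and Trim47 lie further right in spleen while Trim10 lies further right in blood.

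The tissues had been normalised separately, so the place of a member among all probes of an array was used to set spleen beside blood, as a description with no test. Trim47 held a higher percentile in spleen than in blood in 47 of 48 mice, with a median difference of 31.2 percentile points, and its mean log2 intensity was 6.63 in spleen and 5.97 in blood. Trim2, an NHL-domain ligase that acts on neurofilaments in neurons, held a higher percentile in spleen in 41 mice (median difference 19.5). The opposite order was seen for Trim10, which was higher in spleen in 1 of 48 mice, for Trim46 in 2, and for Trim44 and Trim69 in 3 each. Trim72, a muscle protein of membrane repair also called MG53, lay under the array median in spleen (6.04) and above it in blood (6.58), where values ranged up to 8.21. Trim44, Trim46, Trim47, Trim69 and Trim72 lay within 0.5 of the array median or below it in spleen and in blood, so their percentiles may rank background. No member above the array median in either tissue kept 1 order in all 48 mice.

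Trim10, also named HERF1, is a RING protein needed for the terminal differentiation of red cell precursors, and it showed the largest genotype difference of the family in spleen. At day 15 its log2 intensity in spleen ran from 9.82 to 12.21 (median 11.20) in 12 wild type mice and from 11.23 to 12.66 (median 12.03) in 12 mutated mice. At day 44 it ran from 9.61 to 12.61 (median 11.53) in wild type and from 11.82 to 12.57 (median 12.19) in mutated mice. The ranges overlapped at both days and wild type spleens spread more widely, whereas every mutated mouse, 12 in each experiment, lay above the wild type median of its own experiment. No other member did so in spleen, and how many of all genes did was not counted. Over both days the difference was 0.83 ± 0.17 (n = 24 per genotype, 1.78-fold, adjusted p = 3.8e-04, limma).

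The gene lies on chromosome 17 in an unbroken run of 5 TRIM genes with Trim26, Trim15, Trim40 and Trim31. The 200 bases before its start are shown because the member moved with erythroid genes, with a match to the GATA motif in capitals (RefSeq, GRCm38.p6, chr17:36869374-36869573, plus strand, 5′ to 3′).
Trim10: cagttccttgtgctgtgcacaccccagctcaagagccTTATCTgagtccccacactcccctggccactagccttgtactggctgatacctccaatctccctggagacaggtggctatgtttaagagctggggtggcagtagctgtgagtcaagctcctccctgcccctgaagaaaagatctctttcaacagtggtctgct

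The motif searched was AGATAA on both strands, in windows from 250 bases before to 50 after each start, and here it stands on the opposite strand at bases -163 to -158. It occurred in 11.2% of all 32851 promoter windows of that table and in 3 of the 53 windows of the 42 members that the table held, those of Trim10, Trim39 and Trim72. A match describes the letters of the window and not a bound site.

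The difference was of like size at each day. Trim10 differed by 0.84 ± 0.24 at day 15 (adjusted p = 0.041, limma), where 2.47% of all genes passed and Trim10 was the 1 member that did. It differed by 0.82 ± 0.24 at day 44 (adjusted p = 0.030), where 5.19% of all genes passed and it was again the 1 member. Within the experiments the difference over both days was 0.61 ± 0.16 in experiment I (adjusted p = 0.034) and 1.06 ± 0.26 in experiment II (adjusted p = 0.013). Both day-specific calls ended without the 5 spleen arrays with pancreatic transcripts (0.79 ± 0.27, adjusted p = 0.18 at day 15, and 0.85 ± 0.26, adjusted p = 0.054 at day 44), while the call over both days did not (0.82 ± 0.19, adjusted p = 0.0025). They also ended without the experiment term and, but for day 44 of experiment II (1.31 ± 0.37, adjusted p = 0.035), within an experiment, where day 44 of experiment I gave 0.34 ± 0.23.

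In blood Trim10 did not pass. It ran from 11.64 to 13.63 (median 13.04) in wild type and from 11.85 to 13.63 (median 12.72) in mutated blood at day 15, and from 11.79 to 13.91 (median 12.74) and 12.11 to 14.10 (median 13.05) at day 44. The difference over both days was 0.11 ± 0.17. Above the wild type median of blood lay 5 of 12 mutated mice in experiment I and 7 of 12 in the other. The genotype difference in spleen minus that in blood was 0.72 ± 0.24 and missed the threshold (adjusted p = 0.081, limma), and it passed without the spleen and blood arrays with pancreatic transcripts (0.93 ± 0.26, adjusted p = 0.028), as did Trim29 (0.20 ± 0.06, adjusted p = 0.046), so the call for Trim10 depends on these arrays.

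**Figure D2:**
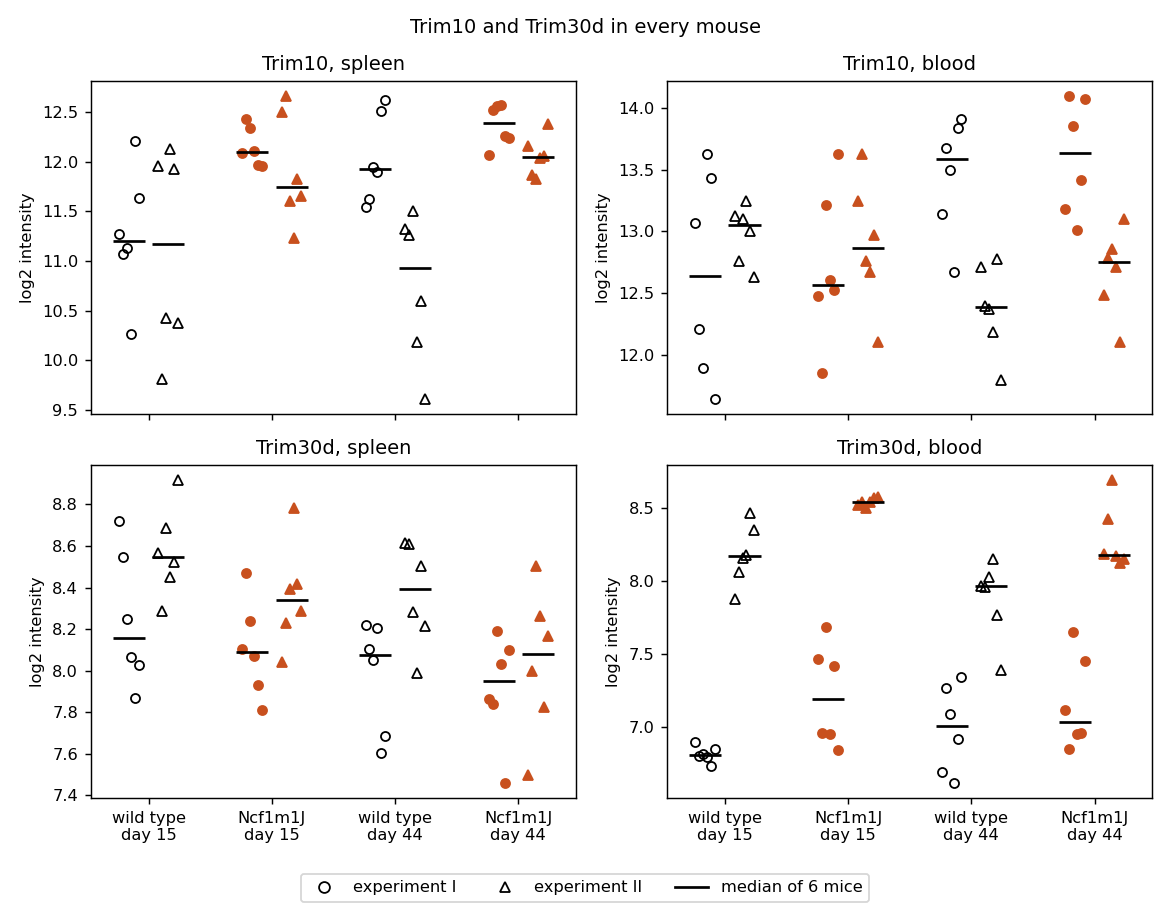
Log2 intensity of Trim10 (top) and Trim30d (bottom) in spleen (left) and blood (right) in each mouse, by genotype and day, with open symbols for wild type, filled orange for Ncf1m1J, circles for experiment I, triangles for experiment II and a bar at the median of 6 mice. Trim10 is higher in mutated spleen at both days with wide spread in wild type, and for Trim30d in blood the experiments lie at different levels, with the mutated mice above the wild type mice at day 15 of experiment II and close to them at day 44 of experiment I.

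A second probe of Trim10 gave 0.73 ± 0.18 in spleen (adjusted p = 0.0035 in the fit of every probe), and another, with a mean of 5.91, lay under the array median and gave 0.04 ± 0.03. Values of 2 probes of 3 thus rose in mutated spleen.

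Trim10 followed the erythroid genes closely among mice of the same group and experiment. Its slope on the mean log2 intensity of 25 erythroid genes, with group and experiment as terms, was 1.32 ± 0.05 in spleen (adjusted p = 7.2e-24, limma) and 1.59 ± 0.13 in blood (adjusted p = 1.3e-13). The erythroid list itself had a mean of 9.06 ± 0.56 in wild type against 9.81 ± 0.32 in mutated spleen at day 15 (SD over 12 mice each), and of 9.35 ± 0.58 against 9.99 ± 0.13 at day 44. With the interferon-inducible, erythroid and lymphocyte means as covariates 0.163% of all genes passed for genotype over both days in spleen. In that fit the genotype difference of Trim10 was -0.13 ± 0.08 and no longer passed (adjusted p = 0.43, limma). The genes outside the family most like it over 48 mice, after removal of group and experiment means, were Hemgn (r = 0.94), Pbk (0.94) and Ermap (0.94) in spleen and Mpp1 (0.95), Snx15 (0.95) and Ranbp10 (0.94) in blood. Hemgn and Ermap are on the erythroid list, so they also enter its mean.

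**Figure D3:**
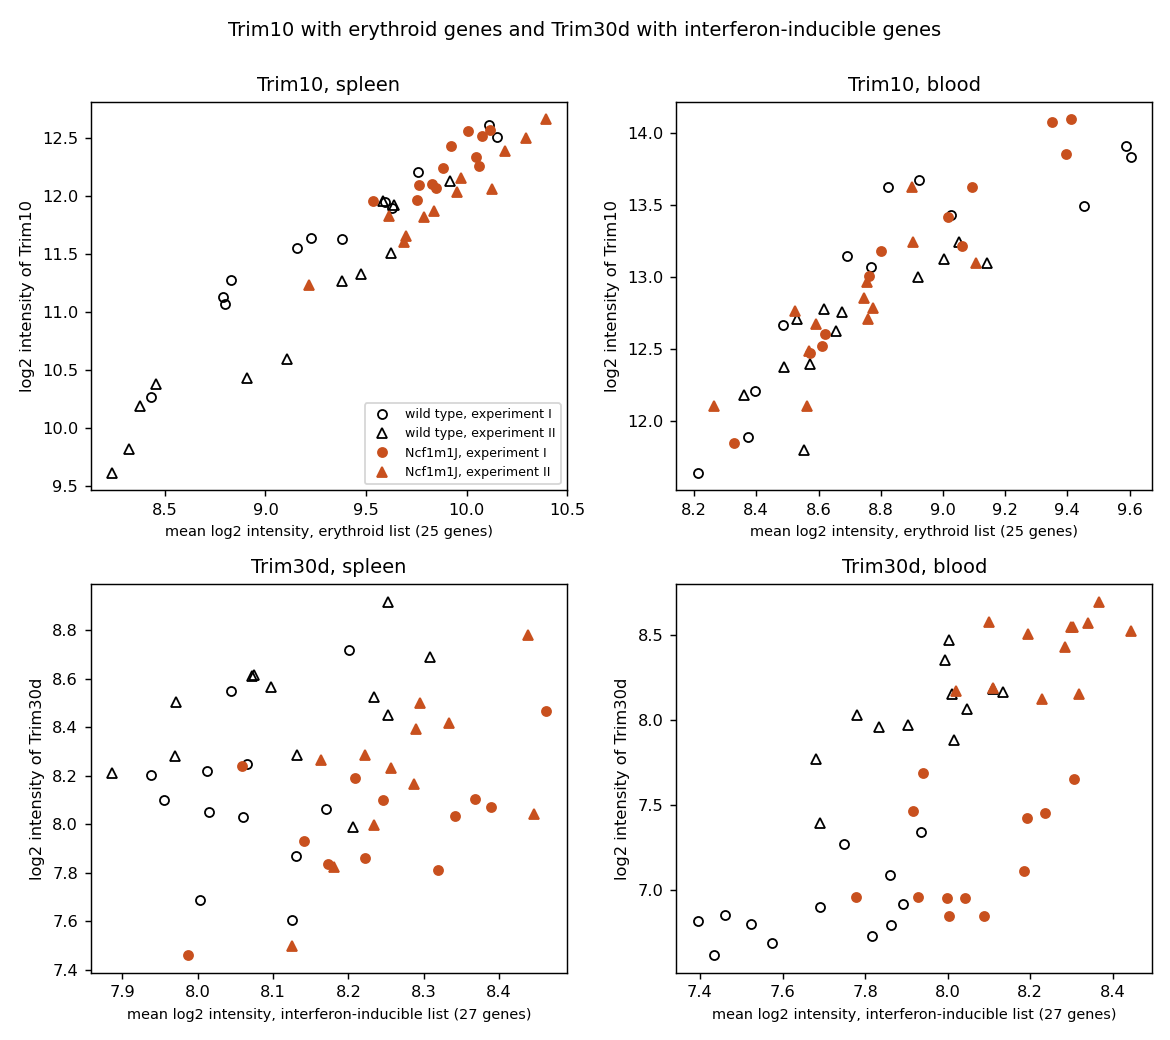
Log2 intensity of Trim10 against the mean of 25 erythroid genes (top) and of Trim30d against the mean of 27 interferon-inducible genes (bottom), in spleen (left) and blood (right), 1 point per mouse, with symbols for genotype and experiment. Trim10 rises with the erythroid mean in both tissues and genotypes, and Trim30d of blood lies at different levels in the 2 experiments.

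Trim58, a ligase that acts on dynein in late red cell precursors, was measured near background. It ran from 5.79 to 6.26 in 24 wild type spleens and from 5.89 to 6.55 in 24 mutated ones, so that all wild type values lay under the array median of 6.36. Its difference over both days was 0.13 ± 0.04 in spleen (adjusted p = 0.044, limma) and -0.03 ± 0.03 in blood. The call was lost without the arrays with pancreatic transcripts (0.12 ± 0.05, adjusted p = 0.11) and within either experiment alone (0.13 and 0.14, with adjusted p of 0.30 and 0.25). Without the experiment term Trim58 did not pass either. Its slope on the erythroid mean was 0.18 ± 0.05 in spleen (adjusted p = 0.0065) and 0.18 ± 0.05 in blood (adjusted p = 0.0022). Of the erythroid TRIM list, 2 of 2 members passed upward in spleen, where 10.5% of all genes passed in either direction, and 0 of 2 in blood, where 1.13% did.

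Over both days 6 of 54 members passed in mutated spleen, 3 higher and 3 lower, against 10.5% of all genes. The share among the members was near that background. Their median difference was -0.0086 and that of all genes -0.0051. Beside Trim10 and Trim58, Trim59, a ligase anchored in the membrane of the endoplasmic reticulum, was higher. It ran from 6.98 to 8.85 in wild type and from 7.18 to 8.46 in mutated spleens, with 10 of 12 mutated mice above the wild type median in each experiment. The difference was 0.31 ± 0.10 (1.24-fold, adjusted p = 0.042, limma), and it was -0.27 ± 0.16 with the 3 list means as covariates. The call ended without the arrays with pancreatic transcripts (0.24 ± 0.11, adjusted p = 0.23) and within either experiment (0.33 and 0.30). Trim59 also missed the threshold without the experiment term.

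The members that fell in mutated spleen changed by little. Trim36, a COS-box protein that binds microtubules, fell by 0.16 ± 0.05 (adjusted p = 0.015, limma). Trim32, an NHL-domain ligase mutated in a human muscular dystrophy, fell by 0.17 ± 0.05 (adjusted p = 0.020). Trim8, a ligase of cytokine and NF-kB signalling, fell by 0.17 ± 0.06 (adjusted p = 0.048). For Trim32, 4 of 12 mutated mice lay above the wild type median in experiment I and 1 of 12 in experiment II, and for Trim36 likewise 4 and 1. For Trim8 these counts were 3 and 2, and with the 3 list means as covariates its difference was 0.045 ± 0.088. With those covariates Trim36 differed by -0.10 ± 0.08 and Trim32 by -0.0064 ± 0.0835. The T cell mean, for comparison, was 8.71 ± 0.11 in wild type and 8.35 ± 0.22 in mutated spleen at day 15, and 8.71 ± 0.20 and 8.10 ± 0.13 at day 44. All 3 calls ended within either experiment alone, and that of Trim8 also with every probe fitted (adjusted p = 0.054). The call of Trim8 ended as well with 45 units subtracted, with trended robust eBayes and without the experiment term. Without the arrays with pancreatic transcripts 2 members passed, Trim10 and Trim32, against 8.51% of all genes. Of the 4 probes of Trim36 and 2 of Trim32, the brightest alone passed, and the others had means under the array median.

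**Figure D4:**
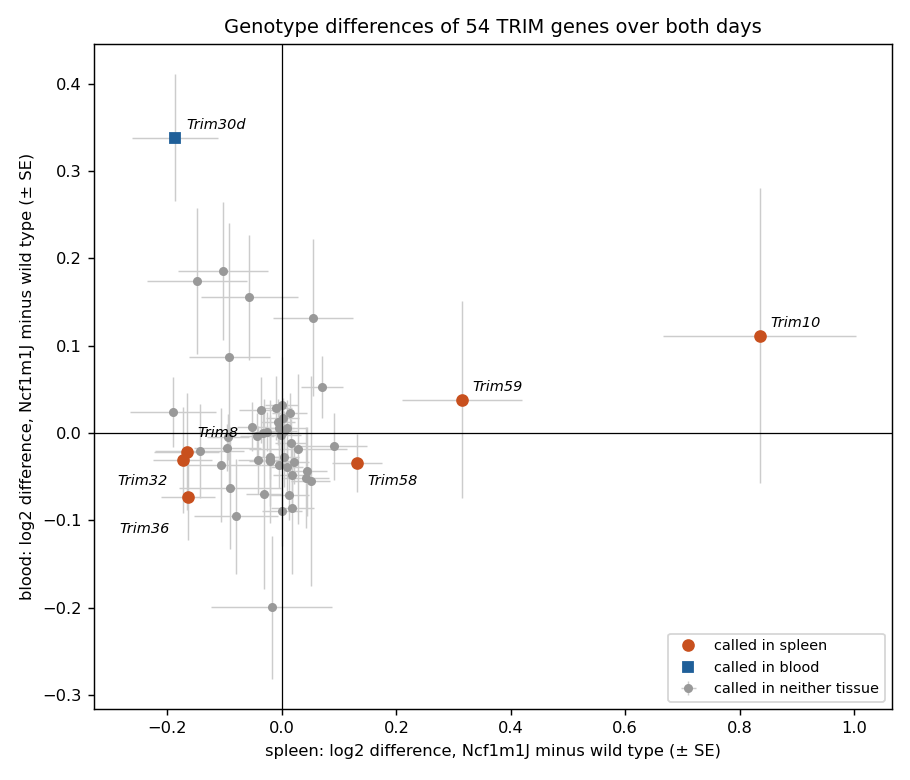
Log2 difference (Ncf1m1J minus wild type, over both days, ± SE) of each of 54 TRIM genes in spleen (horizontal axis) and blood (vertical axis), with genes that passed in spleen in orange and in blood in blue. Trim10 stands apart in spleen at 0.83, and Trim30d is at -0.19 in spleen and 0.34 in blood.

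Trim30d was the 1 member that passed in mutated blood, where 1.13% of all genes did. It belongs to the mouse Trim30 group, whose best known member, Trim30a, restrains NF-kB signalling after Toll-like receptor activation. At day 15 its log2 intensity in blood ran from 6.73 to 8.47 (median 7.39) in wild type and from 6.85 to 8.58 (median 8.10) in mutated mice, and at day 44 from 6.62 to 8.16 (median 7.37) and 6.85 to 8.69 (median 7.89). These ranges overlap, and the experiments lay at different levels. In experiment II at day 15 all 6 mutated mice (8.50 to 8.58) lay above all 6 wild type mice (7.88 to 8.47), while the genotypes overlapped in experiment I at both days and in experiment II at day 44. Over both days every mutated mouse lay above the wild type median of its experiment, which held for no other member in blood. For how many of all genes this held was not counted.

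The difference of Trim30d in blood was 0.34 ± 0.07 over both days (1.26-fold, n = 24 per genotype, adjusted p = 0.0063, limma). It was 0.38 ± 0.10 at day 15 (adjusted p = 0.17, limma), where 0 members and 0.145% of all genes passed. There 4 members had an unadjusted p under 0.05, as did 944 of all 16593 genes. At day 44 the difference was 0.29 ± 0.10 (adjusted p = 0.16), where 0 members and 1.43% of all genes passed. Again 4 members had an unadjusted p under 0.05, as did 1811 of all genes. Experiment II alone gave 0.39 ± 0.08 (adjusted p = 0.0039) and experiment I alone 0.29 ± 0.11 (adjusted p = 0.98). With the 3 list means as covariates it was 0.15 ± 0.13 and did not pass, and in that fit 0% of all genes passed. Nor did the difference pass without the experiment term (0.34 ± 0.19), where 0.458% of all genes did. It also missed the threshold without the 9 blood arrays with pancreatic transcripts (0.30 ± 0.08, adjusted p = 0.063), where 0 members and 1.41% of all genes passed. The interferon-inducible mean stood at 7.84 ± 0.26 in wild type against 8.14 ± 0.18 in mutated blood at day 15, and at 7.78 ± 0.16 against 8.16 ± 0.17 at day 44 (SD over 12 mice each).

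In spleen the same gene pointed the other way. It ran from 7.87 to 8.92 (median 8.49) in wild type and from 7.81 to 8.78 (median 8.24) in mutated spleen at day 15, and from 7.60 to 8.62 (median 8.21) and 7.46 to 8.50 (median 8.01) at day 44. The difference, -0.19 ± 0.08, did not pass (adjusted p = 0.12, limma), although the interferon-inducible mean was 8.16 ± 0.09 in wild type and 8.31 ± 0.12 in mutated spleen at day 15. The genotype difference in spleen minus that in blood was -0.52 ± 0.11 (adjusted p = 5.3e-04), and Trim30d was the 1 member that passed this test of the tissues, against 3.77% of all genes. It was -0.39 ± 0.16 in experiment I alone (adjusted p = 0.55) and -0.66 ± 0.13 in experiment II alone (adjusted p = 0.0020). Without the spleen and blood arrays with pancreatic transcripts it was -0.47 ± 0.12 (adjusted p = 0.012).

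Trim30d closes a run of 11 protein-coding genes on chromosome 7 that starts at Trim6, of which 10 are TRIM genes and 5 were measured here: Trim6, Trim12c, Trim30b, Trim30a and Trim30d. The windows before the starts of Trim30d and Trim30a, and a stretch after the start of Trim21, are shown because these members carry the interferon-stimulated response element in its plain form. The motif searched, in capitals, was GAAA followed by NN and again GAAA, on both strands (RefSeq, GRCm38.p6, minus strand, 5′ to 3′, at chr7:104507850-104507949, chr7:104465194-104465293 and chr7:102565449-102565478).
Trim30d: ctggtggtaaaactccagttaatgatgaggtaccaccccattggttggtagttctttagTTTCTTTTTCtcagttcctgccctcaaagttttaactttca
Trim30a: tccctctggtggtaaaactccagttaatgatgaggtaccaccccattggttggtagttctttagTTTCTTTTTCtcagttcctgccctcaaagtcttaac
Trim21: ctctgagagGAAACTGAAAGTGAAAtttgg

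The motif stood at bases -41 to -32 of Trim30d and -36 to -27 of Trim30a, on the opposite strand, and as overlapping matches at bases 14 to 29 after the start of Trim21. It occurred in 3.44% of all promoter windows and in 6 of the 53 windows of members, those of Trim2, Trim12c, Trim21, Trim30d and, at 2 starts, Trim30a. An alignment of the 2 windows of 100 bases had 94 identical bases over 105 columns, which include gaps at the ends where the windows are offset. These windows lie before the starts, so they do not show how alike the transcripts are. With probe sequences not used here, whether the probe of one gene also takes up transcripts of the other was not tested.

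The other interferon-linked members did not pass between genotypes. Of the 16 genes on that list 10 were measured, and 1 rose and 0 fell in mutated blood, 0 passed in mutated spleen, with medians of 0.09 in blood and -0.03 in spleen against -0.0054 and -0.0051 over all genes. Trim30a differed by 0.17 ± 0.08 in blood and -0.15 ± 0.09 in spleen, and Trim21, the cytosolic antibody receptor, by 0.19 ± 0.08 and -0.10 ± 0.08. Trim30b differed by 0.16 ± 0.07 in blood and -0.06 ± 0.08 in spleen. The spleen minus blood differences of Trim30a (-0.32 ± 0.12, adjusted p = 0.16, limma) and Trim21 (-0.29 ± 0.11, adjusted p = 0.18) had the sign of that of Trim30d and missed the threshold. Trim56, a ligase that promotes signalling after sensing of cytosolic DNA, differed by 0.13 ± 0.09 in blood and 0.05 ± 0.07 in spleen. Trim25, which activates the RNA sensor RIG-I, and Trim14, Trim38, Trim6 and Trim12c had means within 0.5 of the array median or below it in both tissues and differed by at most 0.09 in size.

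In blood 15 of 54 members passed in their slope on the mean of 27 interferon-inducible genes, 14 upward and 1 downward, against 25.9% of all genes. Among interferon-linked members, Trim56 (1.21 ± 0.24, adjusted p = 1.3e-04, limma), Trim21 (0.91 ± 0.23, adjusted p = 0.0019) and Trim30d (0.83 ± 0.21, adjusted p = 0.0019) passed. Trim30a, which carries the motif, had a slope of 0.53 ± 0.27 and did not (adjusted p = 0.15). The steepest slopes belonged to members of other groups, Trim10 at 2.55 ± 0.41, Trim72 at 1.47 ± 0.33 and, downward, Trim2 at -2.18 ± 0.39. Trim72 lay within 0.5 of the array median in blood (6.58), so its slope may be that of background. In blood the interferon-inducible mean moved with the erythroid mean (r = 0.70 over 48 mice after removal of group and experiment means) and less with the lymphocyte mean (r = 0.41). With all 3 means in 1 fit 0 members passed for the interferon-inducible mean, and the slope of Trim10 was 0.15 ± 0.37 against 0.70 ± 0.27 for Trim21. Experiment II alone also gave 0 members, and in both of these fits 0% of all genes passed. Without the blood arrays with pancreatic transcripts 6 members and 13.3% of all genes passed, Trim56 and Trim30d (0.89 ± 0.26, adjusted p = 0.022) among them, whereas Trim21 did not (0.65 ± 0.27, adjusted p = 0.12). Of the 19 pancreas genes themselves 3 fell along each of the 3 means in blood.

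Spleen gave no call for this mean. Limma found 0 members and 0% of all genes past the threshold, with 427 genes and 1 member at an unadjusted p under 0.05, and the mean varied little once group and experiment were removed (SD 0.09, against 0.15 in blood). That member was Trim30a, with a slope of 1.31 ± 0.44 (unadjusted p = 0.0045). Trim56 had 0.69 ± 0.37 and Trim30d 0.65 ± 0.40 in spleen.

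The slopes on the erythroid mean passed for 7 members in spleen, 4 upward and 3 downward, against 9.26% of all genes. Beside Trim10 and Trim58, Trim59 (0.49 ± 0.10, adjusted p = 9.2e-04, limma) and Trim37 (0.13 ± 0.04, adjusted p = 0.018) rose with erythroid genes, and Trim32 (-0.22 ± 0.05), Trim8 (-0.24 ± 0.06) and Trim21 (-0.30 ± 0.08) fell. The mean of Trim37 in spleen, 6.04, lay under the array median. With all 3 means in 1 fit 3 members and 5.63% of all genes passed. In blood 15 members passed, 13 upward and 2 downward, against 30.8% of all genes. Trim23, which joins a RING to an ARF-type GTPase domain, had a slope of 0.72 ± 0.09 (adjusted p = 8.4e-09), Trim59 one of 0.83 ± 0.13 (adjusted p = 2.7e-06), and Trim44 one of 0.77 ± 0.13 (adjusted p = 1.1e-05). Trim2 fell with the same mean at -1.11 ± 0.18 (adjusted p = 6.0e-06). Trim44 lay within 0.5 of the array median in blood (6.59), so its slope may be that of background. Experiment II alone gave 1 member in blood, with 2.35% of all genes, and experiment I alone 1 in spleen, with 2.66%.

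The likeness of genes gave a description of the same order. Trim59 was most like Hace1 (r = 0.91), Dek (0.90) and Marchf8 (0.87) in spleen and Trim23 most like Mat2b (0.89), Usp15 (0.85) and Ttc33 (0.84) in blood. Trim2 in blood was most like Rhou (0.93), Cldn2 (0.93) and Shroom1 (0.93). All these values share 48 mice and their arrays.

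Lymphocyte genes, the mean of 20 T cell and 17 B cell genes, gave the most calls in spleen. There 15 members passed, 9 upward and 6 downward, against 26% of all genes. Trim21 had a slope of 0.96 ± 0.17 (adjusted p = 2.2e-05, limma), Trim39, a ligase of cell cycle and apoptosis control, one of 0.76 ± 0.15 (adjusted p = 1.5e-04), and Trim41 one of 0.84 ± 0.18 (adjusted p = 2.7e-04). Trim28, the corepressor of KRAB zinc finger proteins, rose by 1.11 ± 0.25 per unit (adjusted p = 5.6e-04), though its slope was -0.090 ± 0.278 in experiment II alone. Trim10 fell along it at -1.85 ± 0.38 (adjusted p = 2.2e-04), and with all 3 means in 1 fit its slope was 0.076 ± 0.158. The erythroid and lymphocyte means of spleen moved against each other (r = -0.62). Experiment I alone gave 8 members, with 13% of all genes, and experiment II alone 2, with 3.94%.

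In blood 14 members passed for the lymphocyte mean, 12 upward and 2 downward, against 26.6% of all genes. Trim39 (0.64 ± 0.08, adjusted p = 2.7e-08, limma), Trim56 (0.83 ± 0.13, adjusted p = 7.1e-07) and Trim21 (0.69 ± 0.11, adjusted p = 3.6e-06) had the smallest p, and Trim2 fell at -1.24 ± 0.24 (adjusted p = 4.2e-05). Without the blood arrays with pancreatic transcripts 9 members and 21.2% of all genes passed. Experiment II alone gave 0 members and 0% of all genes, with -0.35 ± 0.44 for Trim21 and 0.25 ± 0.30 for Trim2. Trim21 and Trim39 passed upward for lymphocyte genes in both tissues, as did Trim28 and Trim8. Trim10, Trim23 and Trim30b also passed in both tissues, but downward in spleen and upward in blood.

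**Figure D5:**
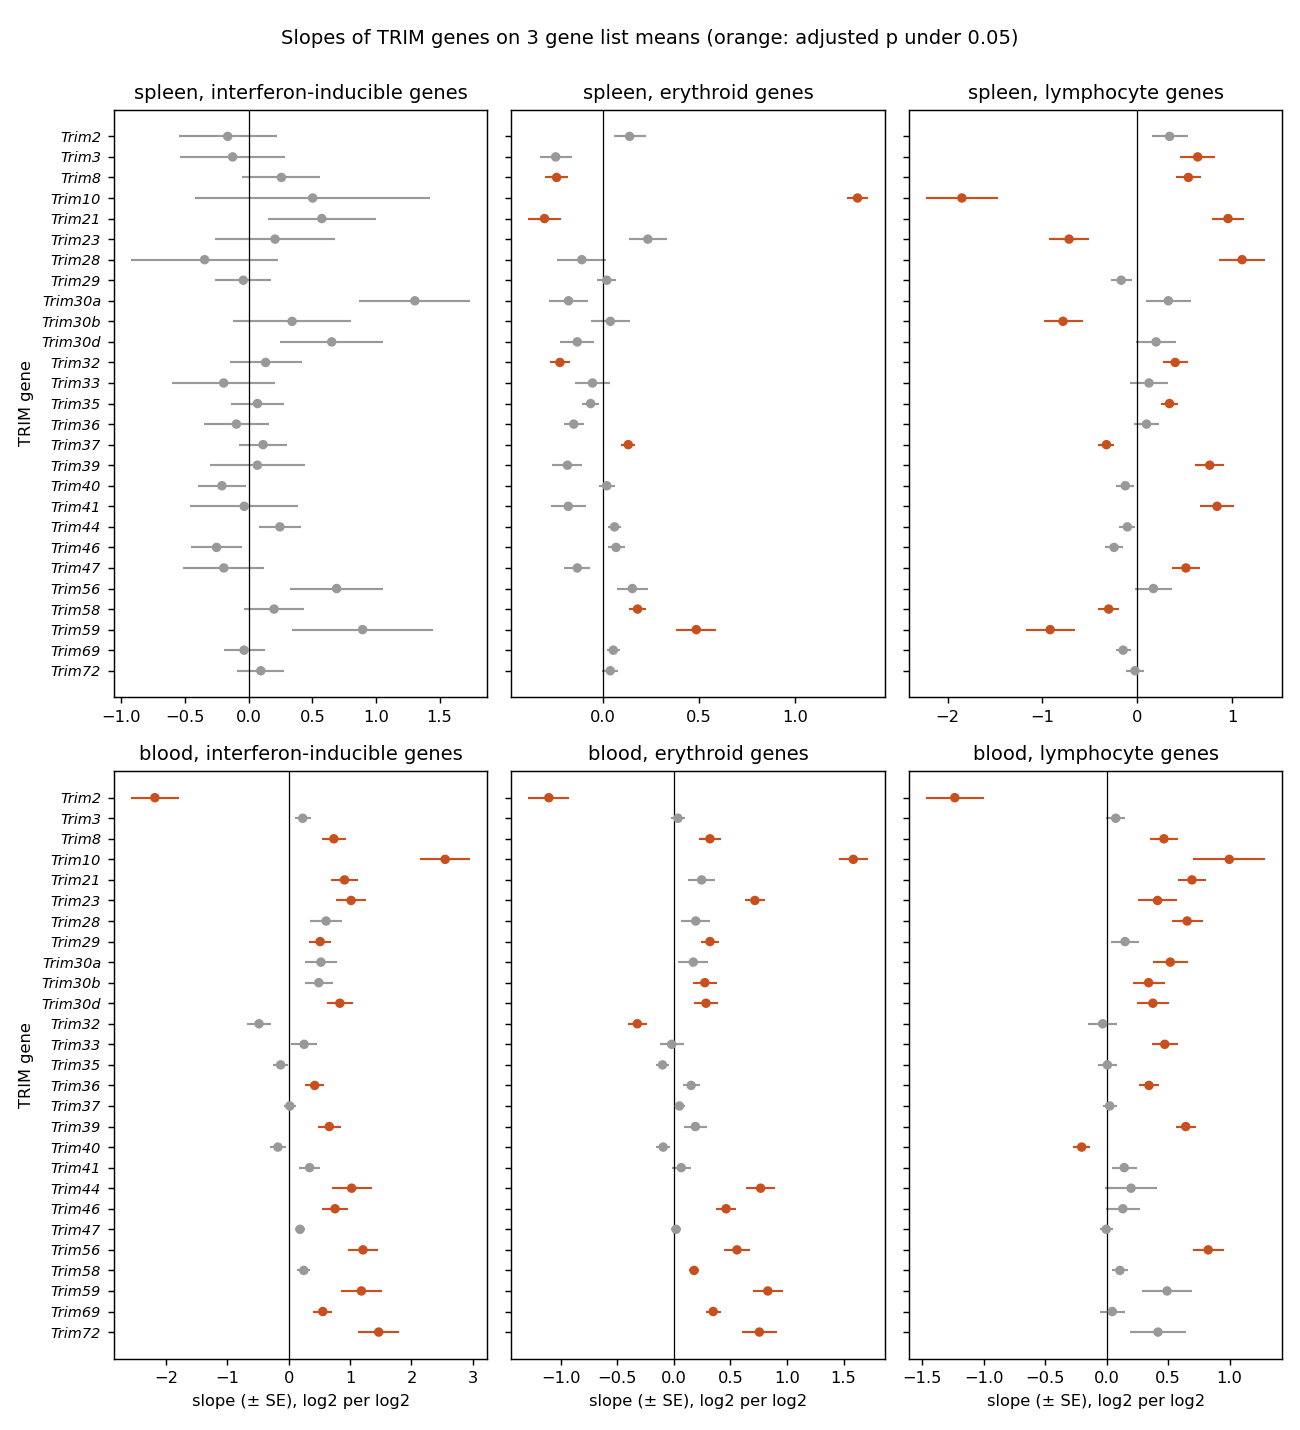
Slope (± SE, log2 per log2) of the 27 TRIM genes that passed in any slope on the means of interferon-inducible, erythroid and lymphocyte genes, in spleen (top) and blood (bottom), with slopes that passed in orange. Trim10 is far right for the erythroid mean in both tissues, no slope passed for the interferon-inducible mean in spleen, and Trim2 is far left in all panels of blood.

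From day 15 to day 44, with both genotypes weighted equally, 9 members passed in spleen, 3 higher and 6 lower, against 22.9% of all genes. Trim28 fell by 0.49 ± 0.11 (n = 24 per day, 1.40-fold, adjusted p = 0.0016, limma), from medians of 11.30 in wild type and 11.39 in mutated spleen at day 15 to 10.60 and 10.63 at day 44. Its ranges at the days overlapped in both genotypes. Its experiments lay at different levels, which the medians by day pool. Over both days the spleen medians were 10.0 in wild type and 10.1 in mutated mice of experiment I. In experiment II they were 11.6 and 11.5. Trim41 fell by 0.34 ± 0.08 (adjusted p = 0.0020) and Trim21 by 0.31 ± 0.08 (adjusted p = 0.0042), the latter from medians of 9.24 and 9.14 to 8.93 and 8.86. For Trim21 the brightest probe alone passed. Its other probes, with spleen means of 6.37 and 6.64 near the array median, gave -0.04 ± 0.05 and -0.02 ± 0.05. Trim30d fell by 0.24 ± 0.08 (adjusted p = 0.015), Trim2 by 0.20 ± 0.07 (adjusted p = 0.032) and Trim75, whose mean of 5.88 lay under the array median, by 0.07 ± 0.03.

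Higher at day 44 were Trim59 (0.34 ± 0.10, adjusted p = 0.016, limma), Trim11 (0.25 ± 0.09, adjusted p = 0.034) and Trim69 (0.13 ± 0.03, adjusted p = 0.0022). Beside them 11 of 27 interferon-inducible, 12 of 17 B cell and 7 of 20 T cell genes fell, while 2 interferon-inducible, 1 T cell, 2 of 10 neutrophil granule and 6 of 25 erythroid genes rose, and their part in these results was not tested. In experiment I alone 18 members and 30.8% of all genes passed between the days, and in experiment II alone 0 members and 0.00603% of all genes, so the members' counts followed those of the whole array. Without the spleen arrays with pancreatic transcripts 5 members and 7.44% of all genes passed.

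Blood showed no member past the threshold between the days, against 0.0783% of all genes. In limma 1571 genes had an unadjusted p under 0.05, among them 3 members, Trim21 (0.24 ± 0.08), Trim23 (0.21 ± 0.09) and Trim41 (0.11 ± 0.05). Whether the genotype difference changed between the days was tested as an interaction. In spleen 0 members and 0% of all genes passed, with 363 genes and 1 member, Trim80, at an unadjusted p under 0.05. In blood 0 members and 0.00603% of all genes passed, with 1251 genes and 3 members at an unadjusted p under 0.05. Experiment II alone gave 1 member in blood, Trim33, with 4.16% of all genes. The smallest p of these belonged to Trim28 in blood (-0.40 ± 0.16, adjusted p = 0.55). At day 44 it ran from 9.13 to 10.63 (median 10.18) in wild type and from 9.01 to 10.21 (median 9.43) in mutated blood, a difference of -0.40 ± 0.12 (adjusted p = 0.066), and at day 15 from 8.49 to 10.19 and from 9.15 to 10.01. In experiment II alone Trim30d, Trim28 and its TIF1 relative Trim33 passed in mutated blood at day 44, against 5.56% of all genes.

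The remaining groups of the family held few changes. Of 3 measured chromatin members of the TIF1 type 0 passed between genotypes in either tissue in the main fits, and Trim28 was the 1 that passed between the days. Trim28 passed between genotypes over both days in blood of experiment II alone, with 4.08% of all genes. At day 44 it passed in blood among genes above the median level, with 4.46% of these genes. It passed in spleen at day 44 with the 3 list means as covariates, with 4.78% of all genes. Of 3 NHL members Trim32 fell in mutated spleen and Trim2 fell between the days there, and Trim3 differed by -0.19 ± 0.08 in mutated spleen without passing (adjusted p = 0.11, limma). Of 7 COS-box and muscle members Trim36 passed in spleen, and in blood the 7 ranged from -0.07 to -0.0027. Trim50 lies on chromosome 5, as does the mutated gene, with 25 protein-coding genes between them. The probe of Trim50 lay under the array median in both tissues (5.98 and 6.03) and differed by -0.04 ± 0.03 in spleen and -0.0029 ± 0.025 in blood. In all, 14 members passed in a comparison of genotype, day or tissue, 27 in a slope, and 25 in none. The same counts were not made over all genes. Of these, up to 22.9% passed in a single comparison and up to 30.8% in a single slope.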

How the data were processed

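Total RNA was reduced in globin transcripts, amplified and hybridised to Illumina arrays, per the labels' protocols. The table deposited by the authors gives, for 25697 probes and 96 arrays, intensity that is linear and not log2 as the plan assumed, with limma named, without a version, in the submitters' processing notes. The files show 1 distribution per tissue, so arrays had been quantile normalised within a tissue, and the number of arrays limits the precision. Here log2 was taken, probes were named through the platform annotation (23978 with 1 symbol, 0 with several, 1719 with none), and 23962 were matched by Entrez identifier to GRCm38.p6. The 54 members had 80 probes, and 15 had more than 1.

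Limma 3.58.1 in R 4.3.3 was run over all genes of a tissue, with 4 groups and experiment as terms, and the tissue by genotype test over all 96 arrays. Slopes used the same terms, and the genes of a list stayed out of its own fit. Spleen and blood of 1 mouse share its number in the titles, which pairs them, and their consensus correlation was 0.016. The steps were tested on simulated data. Members, gene lists and tests were chosen with earlier results of these data known. Members that passed a comparison, those of the TRIM lists, the 5 smallest p where fewer than 5 passed, and up to 6 per slope were named, and others were named after their values were seen. Alternatives were another centring, subtraction of 45 units with 16 added back, every probe, genes above the median level, trended robust eBayes, no experiment term, either experiment, list means as covariates, 3 means in 1 fit, leaving out the 2 mice farthest in a mean, arrays with pancreatic transcripts left out, and the mouse as a block (statmod 1.5.0). That the mice are separate animals is from the labels.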

Additional observations from a re-analysis of the deposited data

Results flagged for a closer look

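The genotype difference of Trim30d differed between the tissues by a test of the difference itself. It was the 1 such result in the family, and 3.77% of all genes passed that test. Spleen minus blood was -0.52 ± 0.11 (adjusted p = 5.3e-04, limma over all genes, 96 arrays). In experiment I alone Trim30d did not pass the test, and 0.344% of all genes did. The genotype difference over both days was 0.34 ± 0.07 in blood and -0.19 ± 0.08 in spleen. All 12 mutated mice of each experiment lay above its wild type median in blood. In spleen 5 of 12 did so in experiment I and 1 of 12 in experiment II. For how many of all genes this held was not counted. The blood difference passed in experiment II alone, where 4.08% of all genes did, and not in experiment I alone (0.108%). Nor did it pass without the experiment term (0.458%) or with the list means as covariates (0%). The neutrophil granule mean was higher in both mutated tissues (9.68 and 10.96 in wild type and mutated spleen, 6.95 and 7.61 in blood, at day 15). Its part in the result was not tested. Without the 9 blood arrays with pancreatic transcripts the blood difference was 0.30 ± 0.08 (adjusted p = 0.063), and without those of both tissues spleen minus blood was -0.47 ± 0.12 (adjusted p = 0.012). In the latter fit Trim10 and Trim29 also passed, as did 3.65% of all genes.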

How the results depend on the processing

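Of the counts of members that passed, 111 stayed within 1.5 times the reported count and 41 moved under the alternatives, and of the values of named members 312 kept direction and call, 94 kept the direction without the call and 11 reversed. Shares of all genes that passed stand in brackets. The mouse as a replicate block gave the same tissue by genotype result (1 member, Trim30d at -0.52, and 3.83%), and no other comparison pairs samples. That test gave 0 members in experiment I alone (0.344%). In experiment I alone spleen had 1 member for genotype over both days (3.5%), 0 at day 15 (0.856%) and 0 at day 44 (0.313%). It had 18 for day (30.8%), 1 for the erythroid (2.66%) and 8 for the lymphocyte slope (13%). Blood had 0 for genotype over both days (0.108%). In experiment II alone spleen had 1 for genotype over both days (7.94%) and 0 at day 15 (0.0121%). It had 0 for day (0.00603%) and 2 for the lymphocyte slope (3.94%). Blood had 2 for genotype over both days (4.08%), 3 at day 44 (5.56%), 3 for day (4.8%) and 1 for the interaction (4.16%). It had 1 for the erythroid (2.35%), 0 for the interferon-inducible (0%) and 0 for the lymphocyte slope (0%). Without the experiment term the spleen counts were 3 for genotype over both days (6.43%), 0 at day 15 (0.88%) and 0 at day 44 (2.57%). The spleen count for day was 3 (10.4%), and the blood count for genotype over both days was 0 (0.458%). Without arrays with pancreatic transcripts spleen had 2 for genotype over both days (8.51%), 0 at day 15 (0.0121%), 0 at day 44 (4.09%) and 5 for day (7.44%). Blood had 0 for genotype over both days (1.41%), 6 for the interferon-inducible (13.3%) and 9 for the lymphocyte slope (21.2%). Without such arrays of both tissues the tissue by genotype test gave 3 members, Trim10, Trim29 and Trim30d (3.65%). Among genes above the median level 2 members passed in spleen (12% of these genes) and 1 in blood (4.46% of these genes) for genotype at day 44. With the 3 list means as covariates 0 members passed for genotype over both days in spleen (0.163%) and in blood (0%). In spleen 0 passed at day 15 (0.00603%) and 2 at day 44 (4.78%). With the 3 means in 1 fit the slopes gave 3 (erythroid, spleen, 5.63%), 7 (erythroid, blood, 12.7%) and 0 (interferon-inducible, blood, 0%). Reversed with the 3 means as covariates were the genotype differences in spleen of Trim10 (-0.13 over both days, -0.20 at day 15, -0.059 at day 44), Trim58 (-0.046), Trim59 (-0.27) and Trim8 (0.045). Reversed with the 3 means in 1 fit were the lymphocyte slope of Trim10 in spleen (0.076) and the interferon-inducible slope of Trim23 in blood (-0.19). Reversed in experiment II alone were the lymphocyte slopes of Trim28 in spleen (-0.090) and of Trim2 (0.25) and Trim21 (-0.35) in blood. Fewer mice were fitted within an experiment, and otherwise the cause was not tested. The values within an experiment for the tissue test, and those without pancreatic arrays for the tissue test, blood and the slopes, were chosen after seeing the data. Signal limits the members below the array median or within 0.5 of it, 35 in spleen and 37 in blood.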
